A study of Mus musculus with 56 samples.

Results

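The effect of carrying the titin mKO allele on both chromosomes rather than on 1 was examined in mouse tibialis anterior, the muscle at the front of the shin, in the absence of any protease. RNA was sequenced from 4 homozygous (HOMO mKO) and 4 heterozygous (HET mKO) muscles taken 7 days after an injection of saline (7 dpi), which are 8 of the 56 libraries of the series. Both groups therefore carry the titin mKO allele and both received saline; the other muscles of the series received either saline or an adeno-associated virus encoding a fusion of GFP and TEV protease. Reads of the viral transgene numbered between 0 and 1 in each of the 8 libraries. Wild-type (WT) saline muscle of 7 dpi (3 libraries) gives the level without the allele on the same day, and HOMO mKO against WT saline muscle at 3 dpi (4 and 3 libraries) and at 21 dpi (4 and 4 libraries) gives the homozygous allele in other samples. How the allele was built, the age of the mice, the hour at which muscles were dissected and whether each library came from a separate mouse are not stated in the labels. The p-values therefore measure a spread between libraries, which need not be a spread between mice. That spread was pooled within the 14 groups of all 56 libraries, those given the virus included, and not taken from the 8 alone.

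Titin is the giant elastic protein that spans the sarcomere from the Z-disc to the M-band and sets the passive stiffness of a muscle fibre. Its spring region binds muscle ankyrin repeat proteins, its Z-disc end binds telethonin (Tcap) together with the LIM protein Csrp3, and its M-band end anchors myomesins, so that genes of these partners are often read as a report of strain on the sarcomere. Muscle also keeps a circadian clock, in which Arntl (BMAL1) with Clock or Npas2 drives the Per and Cry repressors and the output factors Dbp, Tef and Hlf, and in which Nr1d1 and Nr1d2 repress Arntl.

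The libraries held 20.8 to 26.9 M reads (M, 1e6) in homozygous muscle and 20.7 to 23.8 M in heterozygous muscle. Fast fibre transcripts far outweighed slow fibre ones in every library, with Myh4, the fast myosin heavy chain of the most glycolytic fibres, at 40944, 47899, 39627 and 40755 normalised counts (CPM, as deposited) in the homozygous and 49844, 43076, 49939.8 and 51564 in the heterozygous muscles. On the first principal component of the 7 dpi saline libraries (28.5% of the variance) the homozygous libraries lay between 13.97 and 28.2 and the heterozygous ones between -15.48 and -11.88, with the wild-type ones from -14.19 to -0.704. Homozygous library 1 lay farthest out.

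Carrying 2 copies of the allele instead of 1 was accompanied by differences in 667 of 13017 genes tested (5.12%; limma, adjusted p under 0.05), of which 467 were higher (3.59%) and 200 lower (1.54%) in homozygous muscle. Of these, 117 were at least 2-fold higher (0.899%) and 33 at least 2-fold lower (0.254%). Among called genes without overlap between the groups and with at least 5 CPM in the higher group, the largest rises included Cilp, Eda2r, Sln, Myl2, Ablim1, Ankrd1, Atf3, Arntl, Myom3, Cpne2 and Tnni1, and the largest falls Per2, Adamts8, Cntfr, Ciart, Hlf, Per1, Mylk4, Slc4a8, Nrip1, Mid1ip1, Per3 and Dbp. The slow myosin gene Myh7, whose groups overlapped, differed by more than any of these but Cilp (3.71 ± 1.12). Without homozygous library 1 there were 381 calls (262 higher and 119 lower), 360 of them among the 667.

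**Figure D1:**
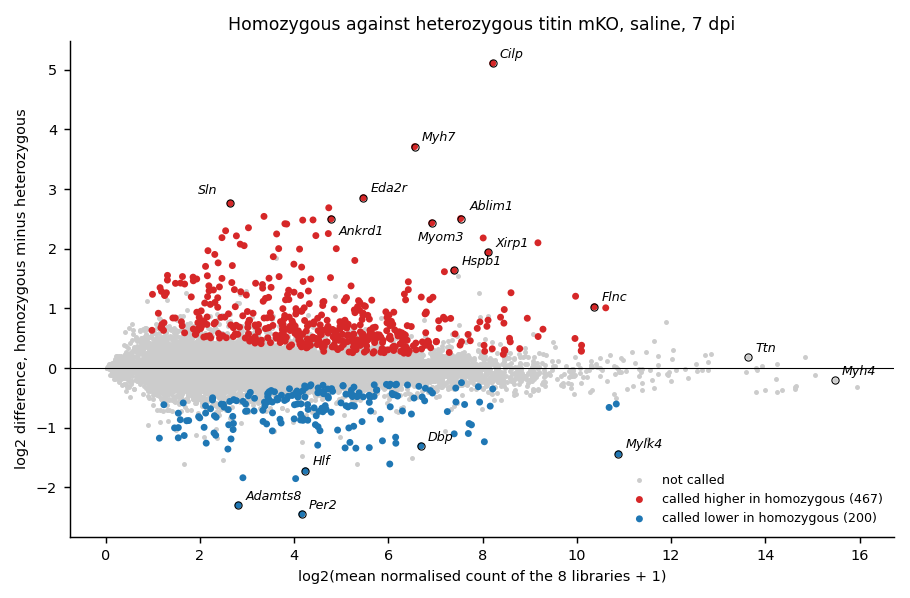
Each point is 1 of the 13017 genes tested: mean normalised count of the 8 libraries (log2 scale, horizontal) against the log2 difference, homozygous minus heterozygous (vertical). The 467 genes called higher are red and the 200 called lower are blue; Cilp stands highest at 5.11, while Ttn and Myh4 lie near 0.

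Titin's own transcript did not pass the test. Ttn stood at 14485, 12119, 13190.2 and 14158 normalised counts in the homozygous libraries and 11654, 12825, 11367 and 11537 in the heterozygous ones. The ranges overlapped, and the log2 difference was 0.19 ± 0.13 (standard error; adjusted p = 0.526).

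The gene with the largest difference was Cilp, which encodes a secreted matrix protein of cartilage and of loaded connective tissue. It stood at 491, 501, 733 and 577 normalised counts in homozygous muscle against 19.2, 26, 11 and 10.2 in heterozygous muscle. Every homozygous library was far above every heterozygous one, a log2 difference of 5.11 ± 0.40 (adjusted p = 5.3e-13). Wild-type muscle of the same day held 21.2, 11.8 and 20.2, which overlaps the heterozygous values. At 3 dpi the homozygous mean was 336 ± 178 (SD, n = 4) against 30.8 ± 14.6 (n = 3) in wild type, and at 21 dpi 526 ± 184 against 13.1 ± 4.46 (n = 4 each).

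Eda2r, a receptor of the tumour necrosis factor family that binds ectodysplasin A2, also rose strongly. Its values were 121, 48.6, 82.8 and 56.5 in homozygous and 7.43, 7.84, 10.2 and 11.8 in heterozygous muscle, with 16.1, 7.08 and 9.31 in wild type. Homozygous and heterozygous libraries did not overlap, and the log2 difference was 2.85 ± 0.24 (adjusted p = 1.04e-11). Ablim1, an actin-binding LIM protein, held 338, 217, 359.7 and 346 against 48.2, 53.5, 55.3 and 57.7, also without overlap, and differed by 2.51 ± 0.23 (adjusted p = 5.81e-11). Cpne2, a calcium-dependent membrane-binding copine, rose from 3.18, 2.7, 4.17 and 3.35 to 23.1, 16.8, 30.3 and 20.2 in homozygous muscle, by 2.42 ± 0.31 (adjusted p = 3.67e-07). In these 3 genes the wild-type libraries lay close to the heterozygous ones: the HET minus WT log2 differences were -0.15, 0.07 and -0.04, none of which passed the test, with adjusted p-values that rounded to 1.

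Atf3, an immediate early and stress-induced transcription factor, rose on average but unevenly. It stood at 98, 10.1, 29 and 9.68 in homozygous and 1.66, 5.69, 3.5 and 3.5 in heterozygous libraries. Homozygous library 1 was the highest, yet the lowest homozygous value was still above the highest heterozygous one (log2 difference 2.48 ± 0.49, adjusted p = 0.000707). Fst, which encodes follistatin, the secreted inhibitor of myostatin and activin, rose from 2.1, 1.55, 1.45 and 1.86 to 8.42, 12.2, 14 and 8.36 (2.08 ± 0.28 on the log2 scale, adjusted p = 1.68e-06).

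**Figure D2:**
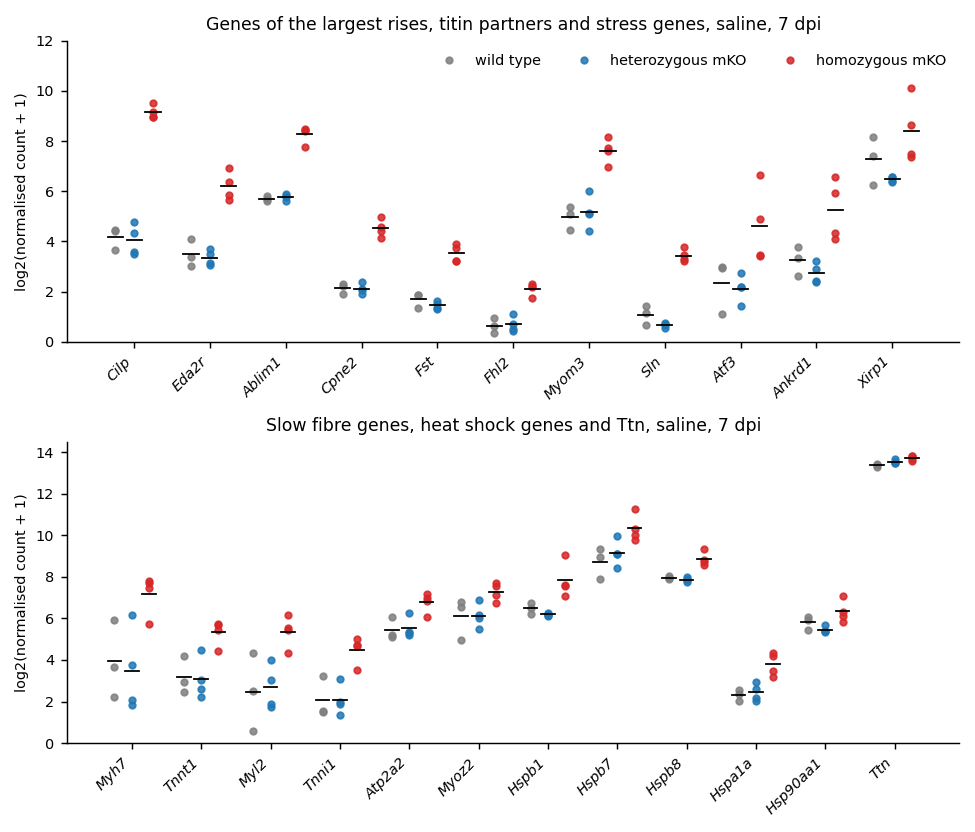
Each dot is 1 library at 7 dpi (3 wild type, grey; 4 heterozygous, blue; 4 homozygous, red), black bars are means, and the vertical axis is log2(normalised count + 1). For Cilp, Ablim1 and Cpne2 the red dots stand clear of blue and grey, which lie together; for Ankrd1 and Hspb1 homozygous library 1 is the highest red dot.

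Among 18 tested genes of titin-binding ankyrin repeat and LIM proteins, 5 rose and 1 fell in homozygous muscle (33.3% called against 5.12% of all genes), and the median log2 difference was 0.32 against 0.0019 over all genes tested. Ankrd1, the ankyrin repeat protein CARP that binds the titin spring, held 92.7, 16.3, 60.7 and 19.1 in the homozygous libraries and 8.3, 4.17, 4.41 and 6.54 in the heterozygous ones. Library 1 and library 3 of the homozygous group were the high ones and the groups did not overlap (log2 difference 2.50 ± 0.61, adjusted p = 0.00734). Xirp1, a Xin actin-binding repeat protein of stressed myofibrils, rose from 81, 94.2, 94.3 and 83.1 to 1112, 179, 403 and 166 (1.94 ± 0.42, adjusted p = 0.00199). Fhl2, a LIM protein that binds titin, rose from 0.354, 1.18, 0.644 and 0.41 to 3.64, 2.4, 3.56 and 3.94 (1.42 ± 0.24, adjusted p = 0.000106), without overlap.

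Csrp3, the muscle LIM protein, was called at the edge of the threshold and its groups overlapped. It held 984, 139, 344 and 229 in homozygous and 47.4, 203, 81.4 and 30.7 in heterozygous muscle, so that heterozygous library 2 was above homozygous library 2 (log2 difference 2.18 ± 0.68, adjusted p = 0.0496). Trim63 (MuRF1), a ubiquitin ligase that binds titin near its kinase, rose from 130.1, 120.0, 135 and 160.1 to 180.2, 189, 199 and 246, a small difference of 0.57 ± 0.17 without overlap (adjusted p = 0.0286). The 1 fall of the list was Tcap, which caps titin at the Z-disc and is named after its value was seen: it stood at 1272, 1543, 1336 and 1671 against 2173, 2424, 2131 and 2071 (-0.60 ± 0.18, adjusted p = 0.0385). Ankrd2 did not pass, with 554, 128, 219 and 148 in homozygous and 57.6, 184, 85.9 and 34.4 in heterozygous libraries (1.54 ± 0.56, adjusted p = 0.112). When homozygous library 1 was left out, limma called 3 of the 18 genes higher and 0 lower, and Ankrd1, Csrp3 and Tcap were among the calls lost. The list also held 3 calls without homozygous library 3 or heterozygous library 1 or 3. The Csrp3 call was lost in 15 of 21 alternative analyses, the Tcap call in 9 and the Trim63 call in 6; the Ankrd1 call was lost with limma voom.

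At the other anchors of titin, 1 of 12 M-band and obscurin family genes and 3 of 28 Z-disc and thin filament genes were called, all higher (8.33% and 10.7%, against 5.12% of all genes called and 3.59% called higher). The M-band gene was Myom3, the myomesin of slow and intermediate fibres, at 282, 124, 210.1 and 193 in homozygous and 33.4, 63.5, 34.5 and 20.6 in heterozygous muscle. The lowest homozygous library was above the highest heterozygous one (log2 difference 2.43 ± 0.39, adjusted p = 3.38e-05). The Z-disc genes were Pdlim3 (0.84 ± 0.18, adjusted p = 0.00196), which encodes an actinin-binding PDZ and LIM protein, Flnc (1.03 ± 0.29, adjusted p = 0.0229), the muscle filamin, and Myoz2 (1.15 ± 0.35, adjusted p = 0.0421), the calsarcin of slow and cardiac muscle. Flnc stood at 3877, 1034, 1503 and 1056 in the homozygous libraries against 784, 777, 818 and 738 in the heterozygous ones. Leaving out homozygous library 1, which was far above the others, 1 of the 28 Z-disc and thin filament genes was called, and Flnc and Myoz2 were not. The count was also 1 without heterozygous library 1 or 4.

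Of 14 slow fibre genes tested, 6 rose and 0 fell (limma; 42.9% called against 5.12% of all genes), the median log2 difference was 1.19, and the summed level of the list was 1006 to 1186 in the homozygous libraries against 341 to 601 in the heterozygous and 271 to 640 in the wild-type ones. Tnnt1, slow skeletal troponin T, held 20.3, 50.7, 43 and 52.9 in homozygous and 3.67, 5.06, 21.1 and 7.07 in heterozygous muscle, and heterozygous library 3 was just above homozygous library 1 (2.25 ± 0.54, adjusted p = 0.00655). Myl2, the slow and ventricular regulatory light chain, held 19, 41.8, 45.6 and 71.2 against 7.27, 2.7, 15.2 and 2.39 without overlap (2.69 ± 0.65, adjusted p = 0.00735), and Tnni1, slow skeletal troponin I, 10.5, 25.2, 24.8 and 31.7 against 1.55, 2.96, 7.56 and 2.63 (2.41 ± 0.65, adjusted p = 0.0168).

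Atp2a2, the calcium pump of slow fibres, rose by 1.24 ± 0.35 (adjusted p = 0.0245), although heterozygous library 3, at 76.3, was above homozygous library 1, at 66.3. Myh7, the slow myosin heavy chain, spread most. Its homozygous values were 51.2, 208, 173 and 223 and its heterozygous values 3.18, 2.59, 70.8 and 12.5, with 11.8, 60.3 and 3.62 in wild type. Heterozygous library 3 and wild-type library 2 were high beside the others of their groups, and homozygous library 1 was lower than heterozygous library 3 (log2 difference 3.71 ± 1.12, adjusted p = 0.0386). The Myh7 call was lost with edgeR (adjusted p = 0.133), DESeq2 (0.0825) and limma voom (0.0943) on the recovered reads, with quantile normalization (0.0522), and when homozygous library 2, 3 or 4 or heterozygous library 1, 2 or 4 was left out (0.0706 to 0.158). The Tnni1 call was lost with limma voom and without homozygous library 4 or heterozygous library 1, and the Atp2a2 call without homozygous library 2, 3 or 4 or heterozygous library 1, 2 or 4. Of the 14 slow fibre genes, 3 were called with limma voom, 4 with edgeR and 4 with quantile normalization, all higher. Leaving out homozygous library 4 or heterozygous library 1 gave 2 calls, and leaving out homozygous library 3 or heterozygous library 4 gave 3. Slow fibre genes are carried by few fibres of this fast muscle, and in bulk tissue more slow fibres and more slow RNA per fibre cannot be told apart.

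Fast fibre genes did not pass. Of 14 tested, limma called 0, with 0 at an unadjusted p under 0.05, and edgeR and DESeq2 also called 0; the median log2 difference was -0.03. Myh4 differed by -0.20 ± 0.23 (adjusted p = 0.754), with overlapping ranges. Myh2, the myosin of fast oxidative fibres, stood at 4487, 2533, 3992 and 2749.5 against 3113, 6029.8, 2316 and 1634 (0.20 ± 0.43, adjusted p = 0.89).

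Chaperones were another group in which all calls were rises: 8 of 22 heat shock and chaperone genes were higher and 0 lower (limma; 36.4% against 5.12% of all genes), with a median of 0.29. The small heat shock proteins, which hold unfolded sarcomere proteins, led. Hspb1 held 534, 135, 195 and 185 in homozygous and 69, 71.5, 75.6 and 71.8 in heterozygous libraries, so that even the lowest homozygous library was above all heterozygous ones (1.64 ± 0.25, adjusted p = 1.57e-05). Hspb8, which works with Bag3 in chaperone-assisted autophagy, held 636, 414, 445 and 382 against 214, 231, 253 and 233, also without overlap (0.98 ± 0.16, adjusted p = 3.98e-05). Hsp90aa1, the stress-inducible cytosolic HSP90, rose by 0.89 ± 0.17 (adjusted p = 0.00061) and its constitutive paralogue Hsp90ab1 by 0.29 ± 0.08 (adjusted p = 0.0192).

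The other 4 chaperone calls, named after their values were seen, were Hspb7 (1.20), inducible Hspa1a (1.34), Hsph1 (0.55) and constitutive Hspa8 (0.38), with adjusted p-values of 0.0462, 0.0194, 0.0239 and 0.0425 in that order. Hspa1a shares most of its sequence with Hspa1b, and the labels do not say how reads were divided between them. Without homozygous library 1, which held the highest Hspb1 value, 3 of the 22 genes were called, all higher; Hspb1, Hspb8 and Hsp90aa1 were the 3 of those named here that kept their call. The list count was 4 without heterozygous library 1 and 3 without heterozygous library 4.

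p53 target genes were called in 5 of 20 cases, all higher (25% against 5.12% of all genes), with a median of 0.23. The summed level of the list was 1630 to 1797 in homozygous, 1512 to 1587 in heterozygous and 1618 to 1727 in wild-type libraries. The wild-type range overlapped the homozygous one and lay above the heterozygous one. For Eda2r, by contrast, the wild-type libraries lay close to the heterozygous ones. Beside Eda2r, the called targets included Cdkn1a, which encodes the cell cycle inhibitor p21. Cdkn1a held 61.3, 30.4, 44.7 and 51 in homozygous and 12.2, 8.78, 10.5 and 11.2 in heterozygous libraries (2.00 ± 0.29, adjusted p = 5.1e-06). Its wild-type values were 50.04, 37.6 and 16.4, so that the heterozygous libraries were below all 3 wild-type ones (HET minus WT -1.48 ± 0.31, adjusted p = 0.03). Zmat3, a p53-induced RNA-binding protein, rose by 0.71 ± 0.16 (adjusted p = 0.00254) and Sesn1, a stress sestrin, by 0.43 ± 0.10 (adjusted p = 0.00315). Bbc3 (PUMA), the fifth of the list and named after its value was seen, rose by 0.84 ± 0.23 (adjusted p = 0.0167) from a level near 1 normalised count. The Bbc3 call was lost without homozygous library 1, without heterozygous library 3, with limma voom and with a pseudocount of 4, each of which left 4 of the 20 targets called.

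In the ubiquitin ligase and Foxo atrophy list 5 of 23 genes were called, all higher (21.7% against 5.12%), with a median of 0.17. Its summed level was 2970 to 4857 in homozygous, 2114 to 2517 in heterozygous and 3510 to 3933 in wild-type libraries. The 5 genes called between homozygous and heterozygous muscle were Cdkn1a and Sesn1, which the p53 list also holds, Trim63, Pdk4 and Fbxo30. Pdk4 encodes the kinase that shuts pyruvate dehydrogenase in fasting and Fbxo30 the ubiquitin ligase MUSA1. Pdk4 stood at 1967, 642, 235 and 1049 in homozygous, 187, 104, 215 and 217 in heterozygous and 873, 864 and 1537 in wild-type muscle. The heterozygous libraries were the low ones (HOMO minus HET 2.10 ± 0.54, adjusted p = 0.0121; HET minus WT -2.59 ± 0.59, adjusted p = 0.0469). The Pdk4 call was lost without homozygous library 1 or heterozygous library 2, and the list held 3 calls without homozygous library 3 and 2 without heterozygous library 2. Fbxo32 (atrogin-1), the other muscle ubiquitin ligase of atrophy, stayed just short at 0.87 ± 0.28 (adjusted p = 0.0512).

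Among 22 sarcoplasmic calcium handling genes 3 rose (13.6%, against 3.59% of all genes called higher). Sln, which encodes the SERCA inhibitor sarcolipin, held 8.34, 9.86, 12.7 and 8.82 in homozygous and 0.626, 0.603, 0.691 and 0.458 in heterozygous libraries, a log2 difference of 2.76 ± 0.45 (adjusted p = 5.42e-05). The Sln call was lost with limma voom (adjusted p = 0.164). Asph, the junctin and junctate gene, differed by 0.56 ± 0.13 (adjusted p = 0.00309), a call lost without homozygous library 1. Among 22 growth and secreted factor genes 2 rose and 2 fell (18.2%, against 5.12% of all genes called). Beside Fst, the imprinted RNA H19 rose by 1.01 ± 0.27 (adjusted p = 0.0156). Fndc5, the irisin precursor, differed by -0.77 ± 0.21 (adjusted p = 0.017) and the myokine Il15 by -0.53 ± 0.16 (adjusted p = 0.0438). The falls of Fndc5 and Il15 were not called without homozygous library 1 or 3 or heterozygous library 3. The Il15 call was lost on leaving out any 1 of the 8 libraries, and the H19 call without homozygous library 3 or 4 or heterozygous library 4.

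**Figure D3:**
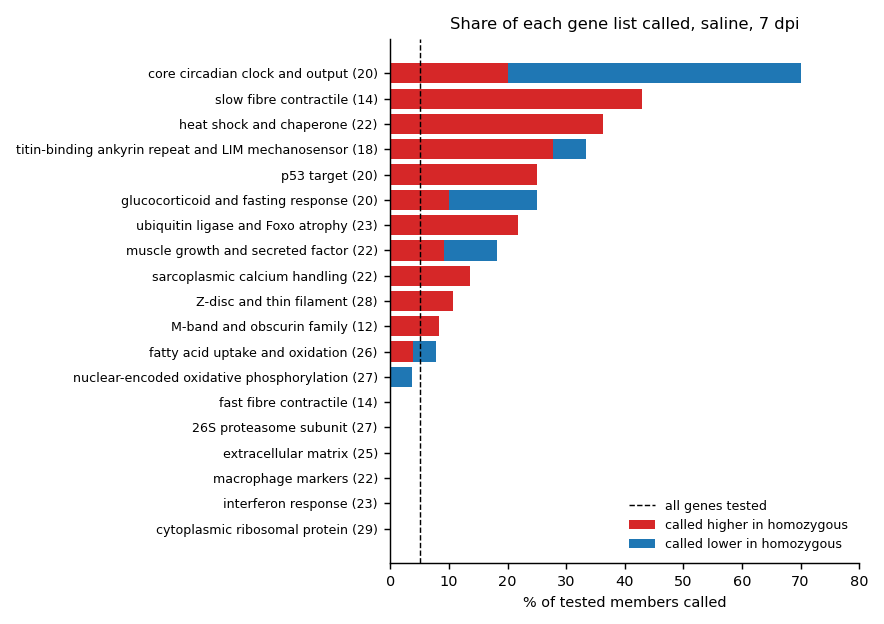
Bars give the percentage of each list's tested members (number in brackets) called higher (red) or lower (blue) in homozygous muscle; the dashed line is the 5.12% of all genes tested. The clock list is longest, with 4 of 20 higher and 10 of 20 lower, and the fast fibre, matrix, macrophage, interferon, proteasome and ribosomal protein lists have no bar.

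2 of the largest falls were surface or secreted proteins outside the clock. Adamts8, a secreted metalloprotease, stood at 1.14, 0.784, 0.384 and 1.55 in homozygous and 26, 10.2, 4.08 and 4.12 in heterozygous muscle, with 15.1, 18.2 and 3.48 in wild type. All homozygous libraries were below all others (-2.30 ± 0.45, adjusted p = 0.0007). Cntfr, the receptor of ciliary neurotrophic factor, held 4.26, 5.15, 5.55 and 9.93 against 29, 26.1, 26.1 and 17 (-1.85 ± 0.35, adjusted p = 0.000472). The Adamts8 call was lost with limma voom (adjusted p = 0.0879). Both genes were also lower in homozygous than in wild-type muscle at 3 dpi (Adamts8 -2.78 ± 0.48; Cntfr -1.55 ± 0.38) and at 21 dpi (-2.17 ± 0.45 and -1.25 ± 0.35), with adjusted p-values of 0.000298, 0.0149, 0.00146 and 0.0326.

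The circadian clock list had the largest share of calls: of 20 core clock and output genes 4 rose and 10 fell in homozygous relative to heterozygous muscle, 70% against 5.12% of all genes tested. The promoters of 5 of the fallers and of the activator gene Clock are shown because clock factors are known to act on such elements: the E-box CACGTG, bound by Arntl with Clock or Npas2, the D-box TTATGTAA, bound by Dbp, Tef and Hlf, and the element AGGTCA, bound by Nr1d1, Nr1d2 and the Ror receptors. Each sequence is the 250 bases before a RefSeq start (GRCm38.p6), 5′ to 3′ on the gene's strand, with the element in capitals on either strand: the E-box in Ciart (chr3:95882229-95882478, minus strand), Per1 (chr11:69098699-69098948, plus), Tef (chr15:81802423-81802672, plus) and Bhlhe41 (chr6:145865421-145865670, minus), the D-box in Per3 (chr4:151044666-151044915, minus) and AGGTCA in Clock (chr5:76303503-76303752, minus).
Ciart: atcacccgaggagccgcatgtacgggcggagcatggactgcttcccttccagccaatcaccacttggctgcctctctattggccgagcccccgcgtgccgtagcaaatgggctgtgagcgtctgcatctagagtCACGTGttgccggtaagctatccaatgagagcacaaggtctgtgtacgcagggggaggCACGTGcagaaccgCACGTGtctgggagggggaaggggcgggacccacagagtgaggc
Per1: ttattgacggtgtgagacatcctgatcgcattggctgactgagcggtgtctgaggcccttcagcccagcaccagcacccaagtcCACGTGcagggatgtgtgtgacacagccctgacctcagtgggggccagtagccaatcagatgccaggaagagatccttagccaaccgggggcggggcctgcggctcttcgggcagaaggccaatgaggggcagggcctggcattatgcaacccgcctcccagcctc
Tef: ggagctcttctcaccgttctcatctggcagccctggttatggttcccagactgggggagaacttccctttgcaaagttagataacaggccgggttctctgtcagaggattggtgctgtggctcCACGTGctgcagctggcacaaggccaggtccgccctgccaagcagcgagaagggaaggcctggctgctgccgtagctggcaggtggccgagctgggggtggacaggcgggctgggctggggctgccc
Bhlhe41: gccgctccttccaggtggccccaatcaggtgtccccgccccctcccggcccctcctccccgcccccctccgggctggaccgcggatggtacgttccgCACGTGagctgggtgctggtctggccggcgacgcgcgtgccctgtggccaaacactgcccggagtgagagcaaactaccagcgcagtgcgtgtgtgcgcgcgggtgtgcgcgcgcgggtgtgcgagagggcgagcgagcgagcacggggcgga
Per3: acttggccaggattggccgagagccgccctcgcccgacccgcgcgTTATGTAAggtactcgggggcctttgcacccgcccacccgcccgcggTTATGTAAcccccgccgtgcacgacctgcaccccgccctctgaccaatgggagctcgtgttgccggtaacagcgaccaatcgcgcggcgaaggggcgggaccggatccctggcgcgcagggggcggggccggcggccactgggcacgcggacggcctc
Clock: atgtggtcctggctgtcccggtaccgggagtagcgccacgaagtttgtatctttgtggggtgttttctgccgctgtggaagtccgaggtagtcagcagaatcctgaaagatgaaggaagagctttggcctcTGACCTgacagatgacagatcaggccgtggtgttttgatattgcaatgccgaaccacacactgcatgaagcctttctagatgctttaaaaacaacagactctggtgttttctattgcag

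A promoter was listed for 17 of the 20 clock genes tested. The E-box was found in 5 of the 17, against 9.9% of the 9875 tested genes with a promoter; 4 of these 5 were among the 9 fallers with a promoter and none of the 4 risers had it. The D-box was found in 1 of the 17 (Per3, 2 copies) against 0.537% of tested genes, and AGGTCA in 4 of the 17 against 13.0%. Ciart carried 3 E-boxes, beginning 116, 58 and 44 bases before its start. A match describes the letters in this window only.

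The 4 clock genes that rose in homozygous relative to heterozygous muscle were the activators Arntl, Npas2 and Clock and the repressor Nr1d1. Arntl stood at 42.2, 29.2, 26 and 22.1 in homozygous and 3.02, 4.9, 5.32 and 4.61 in heterozygous libraries, with 30.4, 24.8 and 8.8 in wild type. The heterozygous libraries were below all others, and the log2 difference was 2.48 ± 0.27 (adjusted p = 9.67e-09; HET minus WT -1.89 ± 0.30, adjusted p = 0.000876). Npas2 rose by 1.29 ± 0.25 (adjusted p = 0.000765), Clock by 0.66 ± 0.16 (adjusted p = 0.00631) and the repressor Nr1d1 by 0.82 ± 0.17 (adjusted p = 0.00132).

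10 repressor and output genes of the list fell in homozygous relative to heterozygous muscle. Per2 stood at 2.52, 4.44, 4.73 and 7.39 in homozygous, 31.8, 26.2, 31.2 and 27.2 in heterozygous and 2.12, 7.54 and 19 in wild-type libraries. The heterozygous values lay in a narrow band above all others, and wild-type library 3 came nearest to them (-2.44 ± 0.36, adjusted p = 1.27e-05). Ciart held 0.603, 2.45, 2.38 and 4.7 against 12.5, 9.15, 10.3 and 10.2 (-1.84 ± 0.37, adjusted p = 0.000907), and Hlf 4.51, 9.95, 7.6 and 10.1 against 28, 26.6, 27.4 and 29 (-1.72 ± 0.28, adjusted p = 5.42e-05). Dbp, the proline and acidic amino acid rich output factor, held 34.9, 59, 51.6 and 101 against 159, 140.3, 139 and 135, with 25.4, 47 and 143 in wild type (-1.31 ± 0.30, adjusted p = 0.0041). Per1 differed by -1.61 ± 0.38 and Per3 by -1.33 ± 0.27, with adjusted p-values of 0.00598 and 0.000861.

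The remaining fallers of the list were Usp2 (-1.10), a deubiquitinase with clock-driven expression, Tef (-0.64), Nr1d2 (-0.61) and Bhlhe41 (-0.47), with adjusted p-values of 4.74e-05, 0.00629, 0.00144 and 0.0265. Npas2, Clock, Nr1d1, Nr1d2, Tef and Bhlhe41 are named after their values were seen. In all 14 called clock genes the homozygous and heterozygous libraries did not overlap, against 14.6% of all genes tested without overlap (7.71% with homozygous libraries higher and 6.88% lower). These 14 were called on the same libraries, so their lack of overlap is partly built in and is no separate result. The share without overlap among all called genes is not given here. Without homozygous library 1, 4 were still called higher and 7 lower, and Per1, Tef and Bhlhe41 were not called. At 3 dpi and at 21 dpi limma, edgeR and DESeq2 called 0 of the 20 genes between homozygous and wild-type muscle, with 1 and 4 at an unadjusted p under 0.05.

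**Figure D4:**
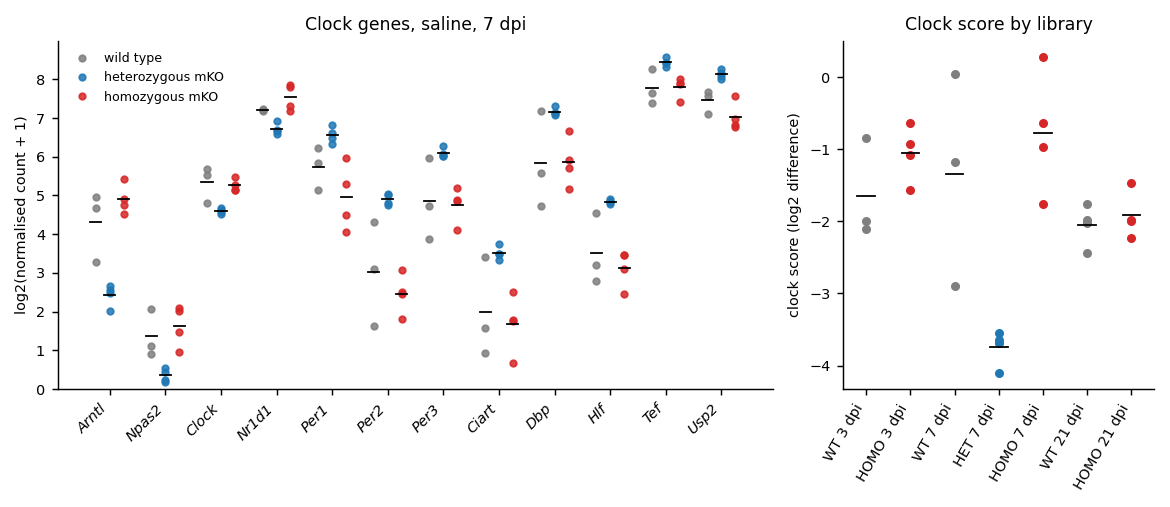
Left, log2(normalised count + 1) of 12 clock genes in each 7 dpi saline library (grey wild type, blue heterozygous, red homozygous; bars are means). Right, the clock score of every saline library, the mean log2 level of Arntl, Npas2 and Clock minus that of 8 repressor and output genes: the 4 heterozygous libraries lie from -4.11 to -3.55, below all others. All terms of the score are genes called between homozygous and heterozygous muscle.

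4 further large falls lay outside the clock list. Mylk4, a myosin light chain kinase family member, held 935, 1164, 1258 and 758 in homozygous, 2909, 2859, 2521 and 2675 in heterozygous and 556, 719 and 1622 in wild-type libraries (-1.44 ± 0.34, adjusted p = 0.00591). Nrip1 (RIP140), a nuclear receptor corepressor of oxidative metabolism, held 17.2, 16.6, 22.4 and 17 in homozygous libraries, 47.2, 51.2, 46.4 and 45.1 in heterozygous ones and 13.9, 26.8 and 36.7 in wild type (-1.34 ± 0.21, adjusted p = 2.11e-05). In both genes the heterozygous libraries were above every homozygous and every wild-type one. Mid1ip1, an activator of acetyl-CoA carboxylase, differed by -1.34 ± 0.27 (adjusted p = 0.000849), and Slc4a8, a bicarbonate transporter, by -1.36 ± 0.24 (adjusted p = 0.000181).

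All terms of the clock score were among the clock genes called above without overlap. Its separation of homozygous from heterozygous libraries was therefore built in and is no separate result. The score did not overlap between homozygous and heterozygous libraries at 7 dpi, and the wild-type range overlapped the homozygous one. It ran from -1.77 to 0.284 in the homozygous, from -4.11 to -3.55 in the heterozygous and from -2.90 to 0.0446 in the wild-type libraries, while at 3 dpi it ran from -1.57 to -0.642 in homozygous and from -2.11 to -0.842 in wild-type muscle, and at 21 dpi from -2.23 to -1.47 and from -2.43 to -1.77. Since no hour of dissection is given, the genotype and the clock state of these 8 libraries cannot be told apart. The 667 calls came from a fit of all 56 libraries, and a fit of the saline libraries alone gave 1323. A fit added after seeing the data took the clock score as a covariate over the saline libraries. In it limma called 34 genes higher and 43 lower (77 in all), and 43 of the 77 were also among the 667. Cilp (4.69 ± 0.64, adjusted p = 0.00184), Ablim1 (2.41 ± 0.35, adjusted p = 0.00202), Eda2r (1.96 ± 0.35, adjusted p = 0.00816), Fhl2 (1.74 ± 0.35, adjusted p = 0.0176) and Fst (1.78 ± 0.39, adjusted p = 0.0298) kept their calls in it. In the same fit limma called 0 of the 22 chaperone genes, 0 of the 14 slow fibre genes, 1 of the 18 ankyrin repeat and LIM genes and 1 of the 20 p53 targets. These counts stand against 77 of all 13017 genes in that fit. Lists this short would hold few or no calls at that share, so the counts do not set these lists apart from other genes. The score was lowest in the 4 heterozygous libraries, so score and genotype overlap in this fit. Standard errors of Cilp, Ablim1, Eda2r, Fhl2 and Fst were larger than in the fit of all 56 libraries. Myh7 still differed by 3.59 ± 2.12 without a call (adjusted p = 0.541), while for some genes the sign turned. A lost call therefore does not show that a difference followed the clock.

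Of the respiratory chain lists, 0 of 13 mitochondrially encoded and 1 of 27 nuclear-encoded genes were called between homozygous and heterozygous muscle (0% and 3.7%, against 5.12% of all genes). All 13 mitochondrially encoded genes had a negative log2 difference, with a median of -0.35, and their summed level was 202939 to 219409 in the homozygous libraries against 251488 to 281719 in the heterozygous and 232183 to 285417 in the wild-type ones. Limma, edgeR and DESeq2 each called 0 of the 13, and 6 had an unadjusted limma p under 0.05, against 2142 of all 13017 genes tested. Of 27 nuclear-encoded oxidative phosphorylation genes 26 had a negative difference (median -0.22) and the 1 called was Sdhd, the membrane anchor of complex II (-0.31 ± 0.09, adjusted p = 0.038). With only the saline libraries fitted, 9 of the 13 and 18 of the 27 were called, all lower. That fit called more genes throughout, 1323 of 13017, with 588 of them lower. Ppargc1a (PGC-1alpha), the coactivator of mitochondrial biogenesis, held 28.8, 29.95, 25.7 and 21.5 in homozygous and 36.4, 52.2, 42.1 and 38.4 in heterozygous libraries, a fall without overlap of 0.65 ± 0.18 on the log2 scale (adjusted p = 0.0253). The Sdhd and Ppargc1a calls were each lost without homozygous library 3 or 4 or heterozygous library 2, Sdhd also without homozygous library 2 or heterozygous library 1, and Ppargc1a also without heterozygous library 3. Pfkfb1, a bifunctional regulator of glycolysis, stood at 28, 30.9, 28 and 30.7 against 57.6, 55.9, 54.2 and 54.6 (-0.90 ± 0.19, adjusted p = 0.00183).

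In the glucocorticoid and fasting list 2 of 20 genes rose and 3 fell (25% called against 5.12% of all genes), with a median of -0.22. Its summed level was 1755 to 3176 in homozygous, 1627 to 1907 in heterozygous and 2459 to 3097 in wild-type libraries. The rises were Pdk4 and Angptl4, an inhibitor of lipoprotein lipase (1.97 ± 0.54, adjusted p = 0.0208); the falls were Per1, Glul, the glutamine synthetase (-0.95 ± 0.24, adjusted p = 0.00816), and Pik3r1, a regulatory subunit of PI3 kinase (-0.47 ± 0.13, adjusted p = 0.0235), the last named after its value was seen. Without homozygous library 1 none of these 5 genes kept its call, and without heterozygous library 1 or 2 the list held 3 and 2 calls. In the endoplasmic reticulum list 2 of 21 genes were called, both lower (9.52% against 5.12%): Herpud1, of the degradation machinery (-0.50 ± 0.10, adjusted p = 0.000617), and Ddit3 (CHOP; -0.51 ± 0.16, adjusted p = 0.0444). The Ddit3 call was lost in 11 of 21 alternatives (adjusted p up to 0.203), among them edgeR, limma voom, quantile normalization and the omission of homozygous library 3 or 4 or of any 1 heterozygous library.

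Most markers of the other cells of muscle did not pass. In 10 marker lists (macrophage, neutrophil, T and natural killer, B and plasma, pericyte, fibro-adipogenic, adipocyte, Schwann, tendon and red cell) limma, edgeR and DESeq2 called 0 of 95 genes. These are the marker lists without a limma call, so the limma count of 0 follows from their choice. Of the 95 genes, 6 had an unadjusted limma p under 0.05, against 2142 of all 13017 tested, of which 667 were called. The summed macrophage markers (22 of 22 in the table) were 93.7 to 143 in homozygous and 78.9 to 143 in heterozygous libraries, and the macrophage marker Adgre1 was 3.1, 2.45, 2.94 and 3.43 against 2.53, 1.34, 2.31 and 2.68 (0.32 ± 0.36, adjusted p = 0.74). The summed fibro-adipogenic markers were 1095 to 1149 against 849 to 1095. All 25 extracellular matrix genes had a positive difference, with a median of 0.29. Limma and edgeR called 0 and DESeq2 1 of these, 6 having an unadjusted p under 0.05, and Col1a1, the main fibrillar collagen, differed by 0.32 ± 0.34 (adjusted p = 0.729). Among 12 endothelial markers 1 rose, the tight junction gene Cldn5, at 16.1, 21.1, 11.4 and 13.2 against 5.69, 6.32, 5.27 and 4.12 (1.35 ± 0.33, adjusted p = 0.007). Its wild-type values, 17.4, 9.55 and 17.3, were above the heterozygous ones. In the chemokine list 1 of 10 genes rose, Cx3cl1 (fractalkine), at 19.5, 9.33, 14.5 and 7.8 against 1.77, 1.18, 1.31 and 2.05 (2.35 ± 0.37, adjusted p = 2.68e-05), and in the matrix protease list 1 of 20 fell, the inhibitor Timp3 (-0.73 ± 0.18, adjusted p = 0.00686). These single calls were 8.33% of the endothelial, 10% of the chemokine and 5% of the matrix protease list, against 5.12% of all genes. They describe these genes and not their lists.

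Homozygous and wild-type saline muscle of other days, which share no library with the 8 compared here, separated many of the rises and fewer of the falls. Of the 467 genes higher at 7 dpi, 151 (32.3%) were called higher at 3 dpi, where 297 genes were called in all (2.28%; 1.71% higher and 0.576% lower), and 206 (44.1%) at 21 dpi, where 432 were called (3.32%; 2.6% higher and 0.722% lower); 130 (27.8%) were called higher on both days. Of the 200 lower genes, 17 (8.5%) were called lower at 3 dpi, 23 (11.5%) at 21 dpi and 10 (5%) on both. Limma, edgeR and DESeq2 called 0 of the 667 in the opposite direction on either day; at an unadjusted p under 0.05 there were 2 at 3 dpi and 4 at 21 dpi. The 297 calls at 3 dpi became 68 without wild-type library 2, 140 without wild-type library 3 and 100 without homozygous library 3, and the 432 at 21 dpi became 275 without homozygous library 1 and 285 without wild-type library 2.

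Cilp, Eda2r, Ablim1, Cpne2, Myom3, Sln, Atf3, Myl2, Hspb1, Hspb8, Fhl2 and Fst were called higher on both other days. Myom3 differed by 2.60 ± 0.42 at 3 dpi and 3.49 ± 0.39 at 21 dpi, and Sln by 3.08 ± 0.49 and 2.44 ± 0.45. Ankrd1 and Xirp1 were called at 21 dpi (3.15 ± 0.61 and 1.56 ± 0.42) and not at 3 dpi (1.83 ± 0.66 and 1.12 ± 0.45), and Tnnt1 at 3 dpi (2.12 ± 0.59) and not at 21 dpi (1.06 ± 0.54). Whether the 2 days differed was not tested. Myh7 was called on neither (2.86 ± 1.21 and 0.61 ± 1.12). Arntl (0.57 ± 0.30 and -0.01 ± 0.27), Per2 (-0.31 ± 0.39 and -0.41 ± 0.36), Mylk4 (-0.12 ± 0.37 and -0.02 ± 0.34) and Pdk4 (-0.40 ± 0.59 and -0.63 ± 0.54) were called on neither day.

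**Figure D5:**
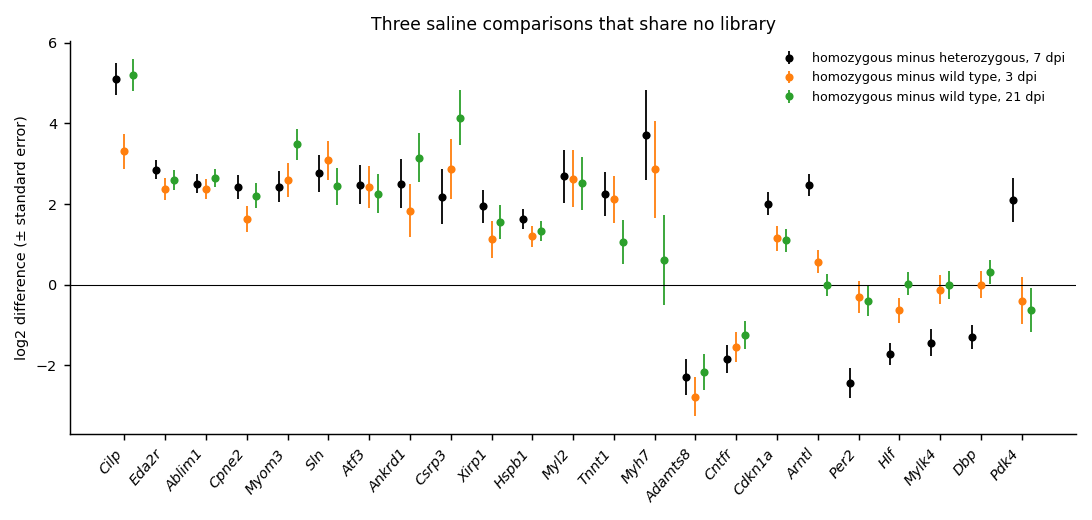
Log2 differences with standard errors of 23 named genes: homozygous minus heterozygous at 7 dpi (black), homozygous minus wild type at 3 dpi (orange) and at 21 dpi (green); the libraries are separate but share 1 spread estimate per gene. From Cilp to Hspb1 all 3 lie above 0, whereas Arntl, Per2 and Mylk4 are far from 0 in black and near 0 in green.

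Few genes were called between heterozygous and wild-type muscle. Of 13017 genes 26 (0.2%) were called between HET and WT saline at 7 dpi, 17 higher (0.131%) and 9 lower (0.0691%), in a comparison that shares the heterozygous libraries with the one above. The count was 0 by limma when wild-type library 1 or 2 was left out (600 and 685 genes at an unadjusted p under 0.05; 13 by edgeR and 62 by DESeq2 with all libraries) and 71 without wild-type library 3. Whether heterozygous muscle lay halfway between the others was tested directly: 252 genes (1.94%) departed from the midpoint of WT and HOMO, 105 above it (0.807%) and 147 below (1.13%). This test reuses the homozygous and heterozygous libraries of the main comparison. The genes named below were among the largest differences of those same libraries, so their departures are no independent result. The count of 252 fell to between 108 and 165 when homozygous library 1, wild-type library 1 or 2 or any heterozygous library was left out. Cilp was -2.62 ± 0.35 from the midpoint (adjusted p = 7.05e-06), Eda2r -1.50 ± 0.22 (adjusted p = 3.26e-05) and Ablim1 -1.22 ± 0.20 (adjusted p = 0.000262), all on the wild-type side. Arntl differed from the midpoint by -2.18 ± 0.24 (adjusted p = 5.85e-08) and Per2 by 2.17 ± 0.32 (adjusted p = 5.38e-05), with the heterozygous mean outside the range of the other 2 means. For Myom3 (-1.11 ± 0.34, adjusted p = 0.0819), Ankrd1 (-1.51 ± 0.54, adjusted p = 0.178) and Myl2 (-1.24 ± 0.58, adjusted p = 0.389) a departure from the midpoint was not detected.

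The neighbourhood of Ttn on chromosome 2 was described separately. Within 10 Mb of Ttn, 11 of 88 tested genes were called (12.5%), 7 higher and 4 lower, and between 10 and 20 Mb away 7 of 78 (8.97%), all higher, against 5.12% of all genes; no test of this share was made. Fam171b, a membrane protein gene, held 12, 7.1, 12.1 and 9.98 in homozygous and 1.44, 1.39, 1.41 and 1.33 in heterozygous libraries (2.22 ± 0.33, adjusted p = 1.46e-05), and was also higher at 3 dpi (1.85 ± 0.36) and 21 dpi (2.37 ± 0.33). Map3k20 (ZAK), a stress kinase of muscle, rose from 254, 246, 253 and 284 to 509.8, 375, 447 and 426 (0.75 ± 0.13, adjusted p = 0.000181). Rapgef4, a cyclic AMP-activated exchange factor, rose by 1.02 ± 0.22 (adjusted p = 0.00199) and Klhl41, a sarcomere-stabilising kelch protein, by 0.50 ± 0.12 (adjusted p = 0.00775). Slc43a3, a purine transporter, differed by -0.69 ± 0.13 (adjusted p = 0.000617) and Nfe2l2 (NRF2), the oxidative stress factor, by -0.41 ± 0.10 (adjusted p = 0.00648). The Klhl41 call was lost without homozygous library 1.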

How the data were processed

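Bulk RNA was sequenced from mouse tibialis anterior (TRI reagent, NEBNext Ultra II Directional kit, per the labels' protocols). FastQC, Bowtie, RSEM and limma, with builds GRCm38 and mm10, are listed per the submitters' processing notes, without versions. No label states the strand setting. The authors deposited 1 table of 14871 rows and 56 columns of normalised counts (CPM), a signal from which whole reads could be recovered for 99.9986% of values (within 0.02 reads). Depth was 6.90 to 27.2 M reads per library.

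The transgene row was left out, and the 13017 genes averaging 1 CPM or more were tested on log2(value + 1) with limma 3.58.1 (R 4.3.3; trend, 1 mean per group, all 56 libraries), with Benjamini-Hochberg adjustment; called means adjusted p under 0.05. Fold changes on this scale understate low genes. Alternatives were limma voom, edgeR 4.0.16 and DESeq2 1.42.0, each run on recovered reads, and other pseudocounts, filters, scalings and sample sets, and each library left out. In simulated counts of 13017 genes for this comparison, 41 of 67 genes changed 1.5-fold, 57 of 67 changed 2-fold and 66 of 66 changed 4-fold were called, with 12 unchanged genes. The changed genes were drawn from above the lowest levels tested. Counts varied independently between genes, without deviations shared by the genes of a library. These shares therefore do not hold for the lowest genes or for such deviations.

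Genes were named by rule: up to 12 largest rises and falls without overlap at 5 CPM or more, 15 fixed genes, up to 4 members of each list by p, and up to 6 genes near Ttn; 1 gene that the rule names is not reported here. The comparison, members and lists were chosen with earlier results of these data known. The labels do not say whether equal sample numbers pair samples, and the main fit did not pair them. The clock score is the mean log2 level of Arntl, Npas2 and Clock minus that of Per1, Per2, Per3, Dbp, Tef, Hlf, Ciart and Usp2.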

Additional observations from a re-analysis of the deposited data

Results flagged for a closer look

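In 190 groups of 4 libraries (95 named genes in the homozygous and the heterozygous group), 12 values (6.32%) stood apart from the other 3 by Dixon's criterion; chance alone flags about 1 in 20 groups. In homozygous library 1, Flnc at 3877 normalised counts, Hspb1 at 534 and Tnfrsf12a at 114 were each far above the other homozygous libraries. Homozygous library 2 was low for Ablim1 (217) and high for Myh4 (47899), and homozygous library 3 was high for Nfkb2 (34.3) and Nrip1 (22.4). Heterozygous library 3 was high for the slow fibre genes Myh7 (70.8) and Atp2a2 (76.3). Heterozygous library 2 was high for H19 (1342), Klhl41 (976) and Mid1ip1 (64.3).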

How the results depend on the processing

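The 667 genes called between homozygous and heterozygous muscle became 566 to 953 under the other pseudocounts, filters, scalings, tools (edgeR 689, DESeq2 786, voom 572), the fit of both groups alone and the replicate block (752), and 1323 with only the saline libraries fitted; the share of higher calls was 70% as reported, 57.4% with the 2 groups alone and 55.6% with the saline libraries. Leaving out 1 library gave 381 to 620. With the clock score as a covariate in the fit of the saline libraries there were 77. In that fit the sign turned for Ankrd2 (-1.39), Atf3 (-0.15), Bhlhe41 (0.12), Ciart (0.49), Clock (-0.10), Col1a1 (-0.21), Csrp3 (-1.13), Dbp (0.79), Flnc (-0.67), Hspa8 (-0.13), Hspb7 (-0.57), Mid1ip1 (0.11), Myh2 (-0.91), Myoz2 (-0.19), Npas2 (-0.22), Pdlim3 (-0.019), Per2 (0.21), Per3 (0.45), Tef (0.28), Tnfrsf12a (-1.61), Xirp1 (-0.50) and Zmat3 (-0.040); Ciart, Clock, Dbp, Npas2, Per2, Per3 and Tef are themselves terms of the score, and for the others the cause was not tested. Myh2 also turned without heterozygous library 4, and ranged from -0.074 to 0.55 without 1 library. Of 88 called genes named, 49 kept their call under every alternative but the clock score, which was added after seeing the data, 11 also with it, and 24 lost it without homozygous library 1.

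HET against WT (26 calls) gave 17 with no filter, 12 with quantile normalization, 41 with both groups alone, 68 with the saline libraries, 13 by edgeR, 62 by DESeq2, 12 by voom, 11 with the replicate block and 0 to 71 without 1 library. HOMO against WT at 3 dpi (297) gave 738 with the saline libraries, 93 with the block and 68 to 313 without 1 library; at 21 dpi (432) it gave 1013 with both groups alone, 892 with the saline libraries, 947 with the block and 275 to 405 without 1 library. The midpoint test (252) gave 491 with the saline libraries and 108 to 345 without 1 library. The cause of these shifts was not tested. Same-numbered homozygous and heterozygous libraries correlated at -0.027 to 0.134 in their deviations. The labels do not say whether the numbers pair libraries, and so few weak correlations cannot settle it. Depth limits genes near 1 normalised count, such as Bbc3 and Npas2.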

Other observations

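The following genes were chosen after their values were seen, so they are given as values and support nothing. Several genes of the non-canonical NF-kappaB pathway, in which Tnfrsf12a (the TWEAK receptor) and related receptors signal through Traf3 and Map3k14 (NIK) to Nfkb2 and Relb, were called higher in homozygous muscle. Nfkb2 stood at 24.7, 24.7, 34.3 and 24.5 in homozygous and 12.4, 10.8, 8.08 and 10.5 in heterozygous libraries, without overlap (1.29 ± 0.17 on the log2 scale, adjusted p = 8.17e-07). Relb differed by 0.95 ± 0.19 (adjusted p = 0.00105), Birc3 by 0.92 ± 0.14 (adjusted p = 2.98e-05), Traf3 by 0.69 ± 0.15 (adjusted p = 0.00199), Map3k14 by 0.84 ± 0.21 (adjusted p = 0.00775) and Tnfaip3, a feedback inhibitor, by 0.80 ± 0.22 (adjusted p = 0.0193). The Tnfaip3 call was lost with limma voom and without homozygous library 1 or 3 or heterozygous library 3 or 4, and the Map3k14 call without homozygous library 3. Tnfrsf12a itself held 114, 10.4, 22.1 and 6.58 against 3.78, 5.11, 3.31 and 2.87 (2.22 ± 0.60, adjusted p = 0.0184). Its call was lost without homozygous library 1 or heterozygous library 4, with limma voom, with only the groups compared fitted and with the replicate block. At 3 dpi the HOMO minus WT differences of Nfkb2 and Relb were 0.78 ± 0.18 and 0.81 ± 0.21, and at 21 dpi 1.00 ± 0.17 and 0.90 ± 0.19.

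3 channel genes called higher were also chosen after their values were seen. In the voltage-gated and muscle ion channel list, which holds none of these, 1 of 21 genes was called (4.76% against 5.12% of all genes) and the median log2 difference was -0.11. Scn2a, a brain sodium channel subunit, held 12.7, 6.44, 8.93 and 4.5 in homozygous and 0.68, 1.49, 0.882 and 0.651 in heterozygous libraries (2.19 ± 0.30, adjusted p = 3.1e-06). Cacna1a, the P/Q-type calcium channel, differed by 1.32 ± 0.23 (adjusted p = 0.00018) and Kcnma1, the BK potassium channel, by 1.05 ± 0.18 (adjusted p = 9.55e-05). Trp63, the p53 family member p63, held 13, 16.4, 26.9 and 14.2 against 3.46, 3.96, 4.27 and 4.03 (1.87 ± 0.25, adjusted p = 1.22e-06).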
